A study of Mus musculus with 12 samples.

Results

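Loss of p300 alone was examined in B16F10, an established line of mouse melanoma cells, by comparing the 3 libraries labelled p300KO with the 3 libraries labelled as control across all measured genes. These are 6 of the 12 libraries of the series. The members are every gene of the count table. The gene lists below were drawn up with earlier results of these data known, so their shares against all genes are descriptions only. Genes on a list of the interferon response and antigen presentation and on a list of the melanocyte lineage and pigmentation were set aside. What follows concerns transcription factors, receptors, secreted proteins, metabolic genes and signalling regulators.

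The control cells carry the genotype WT in the labels. The labels give the p300KO cells as knocked out for Ep300 alone, and 2 further groups of 3 libraries as knocked out for Crebbp or for both genes. All groups grew in DMEM with fetal bovine serum, with no treatment or time point given. The labels do not say how the knockouts were made, whether a group is a clone or a pool of cells, or whether its libraries came from separate cultures, so the p-values below measure the spread between these libraries, which may be technical. If a group is a clone, differences between clones and the loss of Ep300 cannot be told apart. RNA was sequenced as poly(A)-selected, stranded libraries, and 54752 genes were counted.

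p300, the product of Ep300, is a histone acetyltransferase and transcriptional coactivator. DNA-bound factors recruit it to enhancers and promoters, where it acetylates histone tails and other proteins, and it is known for marking active enhancers. CBP, the product of Crebbp, is its close paralog and shares most of its domains and many of its partners, so that either protein can in part stand in for the other. Melanoma cells are known to move between a pigmented, MITF-driven state and a less differentiated state with more matrix and receptor tyrosine kinase transcripts.

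Libraries held 64257251 to 85604243 counts. CPM are counts scaled to a common library size with TMM factors. Before the TMM factors are applied, 1 CPM stands for 64.3 to 85.6 counts. The targeted gene came first. Ep300 stood at 98.5, 85.5 and 99.2 CPM in control and 77.5, 82.9 and 94.7 CPM in Ep300 knockout, with overlapping groups and a log2 fold change of -0.15 ± 0.10 (adjusted p = 0.376), so the transcript level does not check the labels. A count summed over a whole gene does not tell which of its exons were read. Crebbp was at 64.7 ± 7.00 CPM in control and 80.7 ± 11.9 CPM in Ep300 knockout (0.32 ± 0.11, adjusted p = 0.0746), a difference that passed the threshold without Ep300-knockout replicate 1 (adjusted p = 0.0225). Summed melanocyte markers lay between 19400 and 21400 CPM in control and between 14300 and 15000 CPM in Ep300 knockout, and all 7 were measured. Summed immune markers lay between 3.35 and 4.37 CPM against 4.38 and 5.29 CPM, with Nkg7, Adgre1 and Cd3e at 0 in all 6 libraries. Most of these sums came from Cd68 (mean 1.87 against 3.47 CPM) and Lyz2 (1.81 against 1.26 CPM), whose means differed in opposite directions. Ptprc was at 0 against 0.00801 CPM. Endothelial markers (0.743 to 0.979 against 0.303 to 0.584 CPM; Tie1, Cldn5 and Kdr at 0) and epithelial markers (0.317 to 0.577 against 0.0556 to 0.157 CPM; Krt18, Krt14 and Krt5 at 0) were near the bottom of the range. The median log2 fold change by chromosome ran from -0.032 on chromosome 15 to 0.030 on chromosome X. In bulk RNA, fewer cells in a state and less RNA per cell cannot be told apart.

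In Ep300 knockout, transcripts of secreted and cell-surface proteins such as Il11, Epha2, Col8a1 and Axl were among the largest rises. The largest falls included the receptor genes Ackr3 and Gpr37, the peptide gene Cck, the lipid enzyme gene Enpp2 and the transcription factor gene Sox9. In all, 2969 of 18434 tested genes differed from control (16.1%), 1341 higher (7.27%) and 1628 lower (8.83%), and 794 differed at least 2-fold. Outside the set-aside lists 1200 rose and 1583 fell, and 298 and 379 of these did so at least 2-fold. With a filter of 1 CPM in 3 libraries, which tests fewer genes, 507 genes differed at least 2-fold. The test was edgeR's quasi-likelihood F test with Benjamini-Hochberg adjustment over all tested genes. Errors beside CPM are SD, with n = 3 libraries per group throughout. Those beside log2 fold changes are approximate standard errors from the fit to all 12 libraries. They are the absolute log2 fold change divided by the square root of the test's F. For each gene described here as risen or fallen, all 3 knockout libraries lay on the same side of all 3 control libraries. That was a condition for most names and held in 28.4% of all tested genes.

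**Figure D1:**
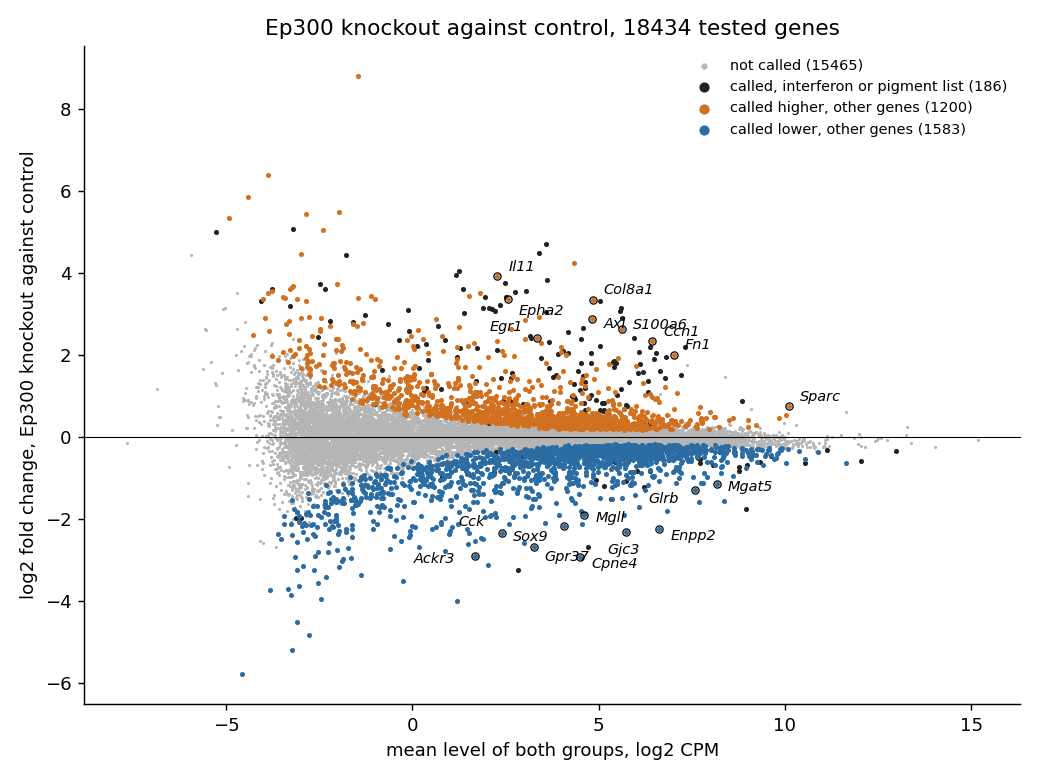
Log2 fold change of Ep300 knockout against control (y axis) over the mean level of both groups in log2 CPM (x axis) for 18434 tested genes, each a point, with 1200 higher and 1583 lower genes outside the interferon and pigment lists in colour and named genes circled. Il11 and Epha2 lie near the top among the circled genes and Cpne4 and Ackr3 at the bottom, and Sparc lies near the right end with a smaller rise.

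The largest rises are given for genes outside the set-aside lists with an established name and at least 5 CPM in the higher group. Among them, Il11, which encodes a gp130 cytokine, rose from 0.584, 0.525 and 0.675 CPM in the control libraries to 9.59, 10.0 and 7.88 CPM in the knockout libraries. The groups were far apart, and the level was 15.3-fold higher (log2 fold change 3.93 ± 0.14, adjusted p = 2.39e-11). Other large rises were those of the small heat shock gene Hspb7 at 3.51 ± 0.18, the kelch-domain gene Klhdc8a at 3.43 ± 0.18, the receptor kinase gene Epha2 at 3.37 ± 0.09 and the collagen gene Col8a1 at 3.35 ± 0.08. The interferon-inducible GTPase gene Igtp, which the set-aside list did not hold, was at 2.93 ± 0.11. Also among the 12 largest rises were Axl, Col12a1, the calcium-binding protein gene S100a6 (2.65 ± 0.12), the tubulin-modifying enzyme gene Ttll11 (2.64 ± 0.13) and the transcription factor gene Egr1.

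The largest fall under the same conditions was that of Cpne4, a member of the copine family of calcium-dependent phospholipid-binding proteins. Its level went from 39.5, 40.6 and 40.8 CPM to 5.35, 5.44 and 5.13 CPM, 7.59-fold lower (-2.92 ± 0.09, adjusted p = 4.6e-12), with little spread in either group. Ackr3, a scavenging receptor for the chemokine CXCL12, fell from 5.54, 6.82 and 4.65 CPM to 0.639, 0.739 and 0.869 CPM (7.50-fold, -2.91 ± 0.18). Gpr37, an orphan receptor of glia and neurons, was 6.38-fold lower (-2.67 ± 0.10), from 16.5 ± 1.06 to 2.58 ± 0.336 CPM. The kinase gene Sgk2 (-2.54 ± 0.17), the peptide gene Cck (-2.35 ± 0.11), the glial connexin gene Gjc3 (-2.33 ± 0.07), the autotaxin gene Enpp2 (-2.24 ± 0.07), Sox9 (-2.18 ± 0.15), the xylosyltransferase gene Xylt1 (-2.13 ± 0.19) and the lipid transporter gene Abca12 (-2.09 ± 0.10) followed. Ppp1r16b (-1.96 ± 0.13) and Fam81a (-1.94 ± 0.12) closed the 12 largest falls.

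The sequence just upstream of the start is shown for 3 genes that rose and 2 that fell, chosen after their values were seen, to let the starting points of opposite responses be compared. Each line holds the 250 bases before the RefSeq start, 5′ to 3′ on the gene's strand, from build GRCm38.p6 (mm10). Capitals mark any match to 4 motifs searched on both strands: GGAATG of TEAD factors, TGANTCA of AP-1, TGACGTCA of CREB and ATF factors, and CATGTG, a core read by MITF. Other forms of the sites of these factors were not searched. The windows are Epha2 chr4:141300971-141301220 on the plus strand, Axl chr7:25788734-25788983 on the minus strand, Ccn1 chr3:145649986-145650235 on the minus strand, Ackr3 chr1:90203730-90203979 on the plus strand and Cck chr9:121495695-121495944 on the minus strand.
Epha2: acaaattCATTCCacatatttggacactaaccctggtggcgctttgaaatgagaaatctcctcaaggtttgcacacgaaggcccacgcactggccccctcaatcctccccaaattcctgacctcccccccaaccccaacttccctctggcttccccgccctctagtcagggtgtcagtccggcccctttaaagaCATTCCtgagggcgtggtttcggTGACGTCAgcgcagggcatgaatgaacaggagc
Axl: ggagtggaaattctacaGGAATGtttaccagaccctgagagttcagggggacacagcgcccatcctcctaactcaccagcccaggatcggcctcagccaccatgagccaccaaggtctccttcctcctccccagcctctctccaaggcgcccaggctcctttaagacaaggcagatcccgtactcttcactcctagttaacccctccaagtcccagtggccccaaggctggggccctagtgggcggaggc
Ccn1: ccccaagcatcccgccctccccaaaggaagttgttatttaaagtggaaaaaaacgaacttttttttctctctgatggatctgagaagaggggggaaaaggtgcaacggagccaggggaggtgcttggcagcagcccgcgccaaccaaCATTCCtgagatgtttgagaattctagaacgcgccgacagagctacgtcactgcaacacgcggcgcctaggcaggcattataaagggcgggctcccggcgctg
Ackr3: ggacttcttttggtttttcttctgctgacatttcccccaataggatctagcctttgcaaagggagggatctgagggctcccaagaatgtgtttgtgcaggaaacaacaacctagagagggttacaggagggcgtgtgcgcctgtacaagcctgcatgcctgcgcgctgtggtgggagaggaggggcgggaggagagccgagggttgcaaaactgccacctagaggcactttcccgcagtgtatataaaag
Cck: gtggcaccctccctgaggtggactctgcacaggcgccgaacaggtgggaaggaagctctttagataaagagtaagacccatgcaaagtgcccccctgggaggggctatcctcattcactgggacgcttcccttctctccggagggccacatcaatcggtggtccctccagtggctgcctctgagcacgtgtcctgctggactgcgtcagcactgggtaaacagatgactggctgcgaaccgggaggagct

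The Epha2 window held 2 matches to GGAATG, read on the opposite strand as CATTCC, and 1 to TGACGTCA. Axl and Ccn1 each held 1 match to GGAATG, and the windows of Ackr3 and Cck held no match to the 4 motifs. Such matches are descriptions and not sites of binding. Of 12880 tested protein-coding genes, 10087 matched a RefSeq window by symbol, and 10.5% of these windows held GGAATG or its reverse. The share was 16.6% in 169 windows of genes that rose at least 2-fold outside the set-aside lists and 14.7% in 204 windows of genes that fell at least 2-fold. TGANTCA was in 4.09% of all windows, 8.28% of the risen and 8.33% of the fallen. CATGTG was in 7.38% of all, 4.14% of the risen (7 windows) and 10.3% of the fallen (21 windows). TGACGTCA was in 2.68% of all, 4.14% of the risen (7 windows) and 0.98% of the fallen (2 windows), so these shares rest on few windows. The matches in the printed windows do not overlap one another, and the shares were not tested.

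Of 334 transcription factors tested, 68 rose (20.4%) and 39 fell (11.7%), with a median log2 fold change of 0.064. This balance rested on single libraries: it was 47 higher and 45 lower without Ep300-knockout replicate 3, and 46 higher and 44 lower without control replicate 2. Among all 12882 tested protein-coding genes 20.5% were called, 9.4% higher and 11.1% lower, and over all tested genes the median was 0.006. At least 2-fold changes were seen in 14 factors that rose and 8 that fell, against 2.6% and 2.17% of all protein-coding genes. Here and below, the shares over all protein-coding genes include the set-aside genes, which the classes leave out. With the set-aside genes 335 protein-coding genes rose and 280 fell at least 2-fold, and without them 228 and 270.

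Immediate-early and AP-1 factors, which cells switch on within minutes of a growth or stress signal, rose in 14 of 33 cases, and 1 fell (median 0.321). Egr1, a zinc-finger factor of this kind, stood at 3.02, 2.94 and 3.67 CPM in control and 14.7, 16.5 and 20.3 CPM in knockout. Its 5.33-fold rise (2.42 ± 0.12, adjusted p = 8.95e-10) left a wide gap between the groups. Fosl2, the FRA-2 subunit of AP-1, went from 15.1, 11.3 and 12.7 CPM to 35.4, 35.0 and 42.5 CPM (2.88-fold, 1.53 ± 0.11), with every knockout library well above every control library. The other subunits moved less. Maff, a small MAF factor, rose by 1.00 ± 0.13, Fos by 0.95 ± 0.14, Junb by 0.68 ± 0.09, Jund by 0.52 ± 0.11, Atf3 by 0.44 ± 0.07 and Jun by 0.42 ± 0.08. Myc, which drives growth and ribosome production, was the member that fell, from 53.6, 47.5 and 55.3 CPM to 34.1, 37.1 and 40.6 CPM (-0.49 ± 0.08, adjusted p = 0.000471).

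SOX factors include regulators of neural crest fate, and 3 of the 6 tested outside the pigment list fell while none rose. Sox9, which directs glial, cartilage and neural crest programmes, went from 31.3, 22.6 and 28.6 CPM to 5.34, 5.38 and 7.49 CPM. That is 4.53-fold lower (-2.18 ± 0.15, adjusted p = 6.28e-08), and the highest knockout library lay far under the lowest control. Sox5, a partner of SOX9 without an activation domain of its own, fell from 24.7 ± 1.05 to 12.2 ± 0.872 CPM (-1.01 ± 0.09). Sox11, of neuronal precursors, fell from 167 ± 11.1 to 94.2 ± 5.64 CPM (-0.82 ± 0.08). Sox4, which belongs to the same subgroup as Sox11, was at 0.02 ± 0.09 (adjusted p = 0.938) and Sox6, the paralog of Sox5, at -0.04 ± 0.10 (adjusted p = 0.851).

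Homeobox factors set positional identity, and 16 of 76 rose and 4 fell (median 0.187). At least 2-fold rises were seen in 2 of them, Dlx2 (1.23 ± 0.35) and Alx4 (1.81 ± 0.51), both under 1 CPM and named after their values were seen. Both calls were lost without Ep300-knockout replicate 3 (adjusted p = 0.100 and 0.129, edgeR), control replicate 1 (0.0664 and 0.103) or control replicate 2 (0.0691 and 0.062). Among members of at least 1 CPM, Meis3 reached 0.87 ± 0.12, Hoxb9 0.60 ± 0.12 and Zfhx3 0.58 ± 0.13. Dlx6, a craniofacial factor, fell from 10.8 ± 0.355 to 5.25 ± 0.571 CPM (-1.04 ± 0.09). Retinoic acid receptors split: Rara rose from 7.12 ± 0.499 to 12.0 ± 1.66 CPM (0.75 ± 0.11), Rarb, itself a classical retinoic acid target, fell from 2.17 ± 0.152 to 1.18 ± 0.116 CPM (-0.88 ± 0.15), and Rarg was at 0.22 ± 0.09 (adjusted p = 0.125). Of 31 nuclear receptors in all, 6 rose and 2 fell, the other fall being the bile acid receptor gene Nr1h4 at -0.76 ± 0.08.

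KLF and SP zinc-finger factors went both ways, with 3 of 19 higher and 5 lower. Klf5, of proliferating epithelia, rose by 1.21 ± 0.14 and Klf8 by 0.94 ± 0.14, while Klf15, a metabolic regulator, fell by 0.65 ± 0.09 on the log2 scale and Klf12 by 0.44 ± 0.09. Runx2, the osteoblast factor that is also active in invasive melanoma, rose from 3.05, 3.57 and 3.73 CPM to 8.24, 9.10 and 9.23 CPM. The 2.57-fold difference (1.36 ± 0.12, adjusted p = 7.2e-07) separated the groups cleanly, and its paralog Runx1 was at 0.54 ± 0.09. Glis2, a GLI-like zinc-finger factor, rose by 1.24 ± 0.18, Gata2 by 1.21 ± 0.17 and Cebpd, an inflammatory CEBP factor, by 1.13 ± 0.12. Hes1, the usual read-out of Notch signalling, rose from 3.15 ± 0.544 to 6.31 ± 0.535 CPM (1.00 ± 0.13).

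Nfatc2, a calcineurin-dependent factor, showed the clearest fall outside the SOX family, from 32.9, 29.3 and 35.3 CPM to 11.7, 12.2 and 13.2 CPM (2.62-fold, -1.39 ± 0.08, adjusted p = 6.17e-09). The knockout libraries were tightly grouped, and its paralog Nfatc3 was at 0.02 ± 0.09 (adjusted p = 0.914). Ets1, an abundant ETS factor of these cells, fell from 729 ± 9.15 to 481 ± 21.2 CPM (-0.60 ± 0.08). Atf4, the effector of the integrated stress response, fell from 376 ± 15.3 to 268 ± 11.7 CPM (-0.49 ± 0.07), and Bach1, a repressor of antioxidant genes, from 40.9 ± 1.93 to 30.1 ± 1.61 CPM (-0.44 ± 0.06). Id2, an inhibitor of helix-loop-helix factors, fell by 0.34 ± 0.06 on the log2 scale while its relative Id3 rose by 0.47 ± 0.09.

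**Figure D2:**
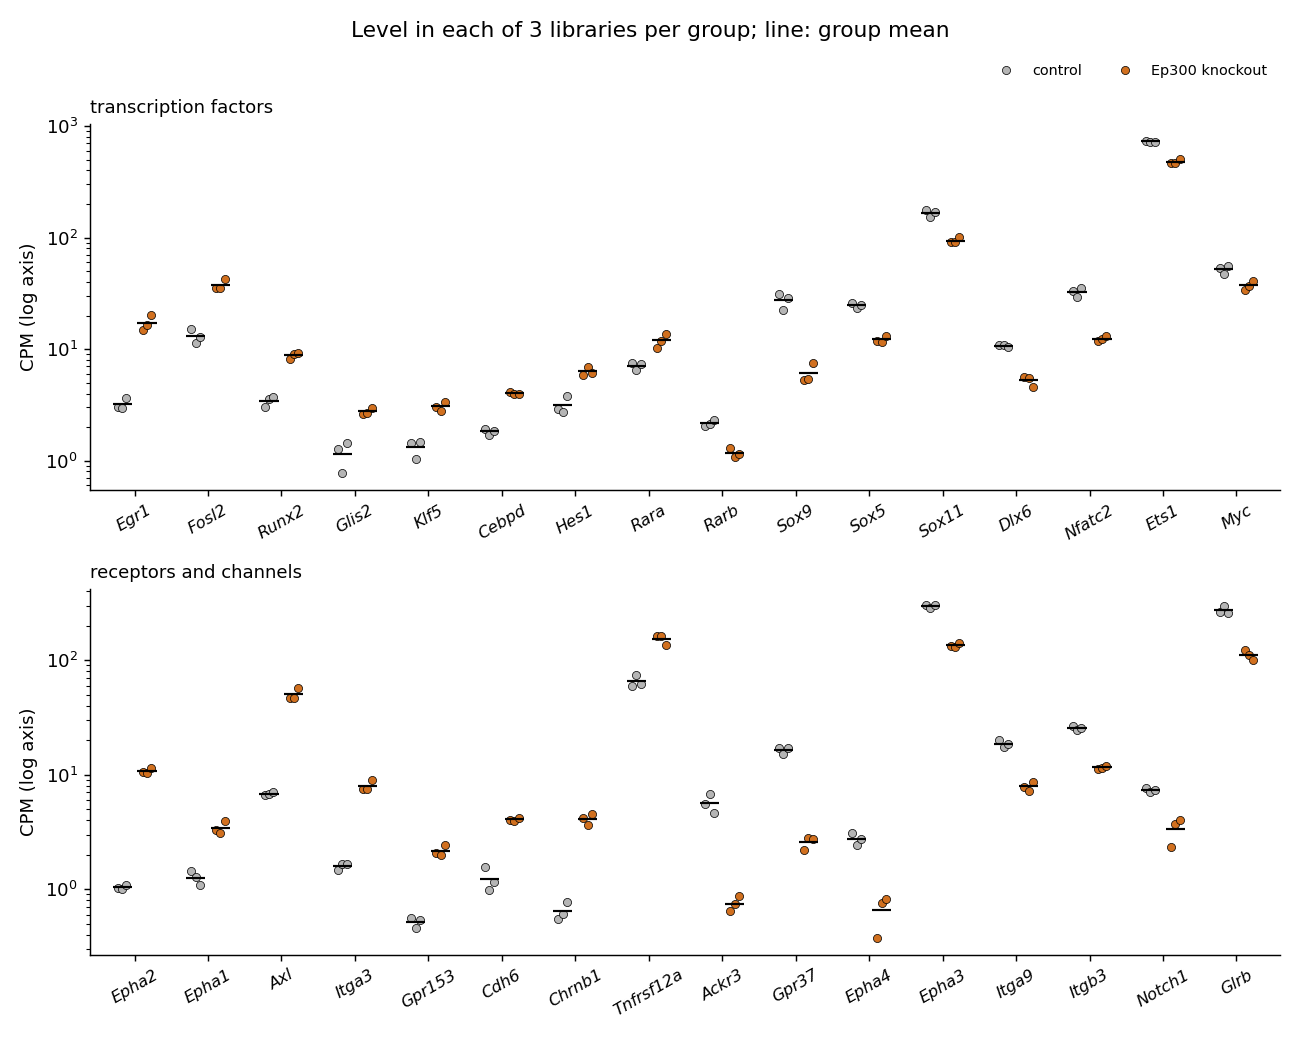
CPM on a log axis in each control library (grey points) and each Ep300-knockout library (orange points) for 16 transcription factors above and 16 receptors and channels below, with a line at each group mean. No gene shown has overlapping groups, and the widest gaps are those of Egr1 and Sox9 among the factors and of Epha2, Axl, Ackr3 and Gpr37 among the receptors.

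Receptor genes changed in both directions, and several pairs of paralogs went opposite ways. Of 356 tested receptors, adhesion molecules and channels, 49 rose (13.8%) and 64 fell (18.0%), with 20 and 26 past 2-fold and a median log2 fold change of 0.007. Among all tested protein-coding genes the shares were 9.4% and 11.1%, or 2.6% and 2.17% for changes of at least 2-fold.

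Among 29 receptor tyrosine kinases 5 rose and 7 fell. Epha2, an ephrin receptor tied to invasive tumour cells (ENSMUSG00000006445, mm10 chromosome 4, 141301240 to 141329384, plus strand), stood at 1.02, 0.997 and 1.09 CPM in control and 10.5, 10.4 and 11.3 CPM in knockout. The rise was 10.3-fold (3.37 ± 0.09, adjusted p = 3.14e-12) and almost without spread. Epha1 rose as well, 2.73-fold (1.45 ± 0.14). By contrast, 3 of its paralogs fell: Epha4 from 2.75 ± 0.328 to 0.653 ± 0.243 CPM (-2.06 ± 0.24), Epha3 from 296 ± 9.76 to 135 ± 4.46 CPM (-1.13 ± 0.07) and Epha7 from 25.7 ± 2.05 to 15.2 ± 0.295 CPM (-0.76 ± 0.08). Axl, a receptor for GAS6 that marks dedifferentiated melanoma, stood at 6.67, 6.82 and 7.05 CPM and at 47.0, 46.4 and 57.6 CPM, a 7.35-fold rise (2.88 ± 0.11). Its family member Tyro3 was at 0.21 ± 0.09 (adjusted p = 0.136). Mertk, of the same family, fell by 0.70 on the log2 scale (adjusted p = 0.0136, edgeR). That call was lost without Ep300-knockout replicate 3 or control replicate 1. Erbb2 rose by 0.44 ± 0.10.

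G protein-coupled receptors fell more often than they rose, 20 (20.2%) against 8 (8.08%) of 99. The share of rises was near the 9.4% of all protein-coding genes, and 11.1% of those fell. Besides Ackr3 and Gpr37, falls were seen in the orphan receptor gene Gpr157 (-1.24 ± 0.14), in Adgrg1, an adhesion receptor for collagen III, from 55.5 ± 5.46 to 27.8 ± 3.85 CPM (-0.996 ± 0.10), and in the lysosomal protein gene Gpr137b (-0.87 ± 0.06). Gpr153, an orphan receptor, rose from 0.518 ± 0.0555 to 2.17 ± 0.247 CPM (2.05 ± 0.19), and S1pr1, a receptor for sphingosine-1-phosphate, from 0.531 ± 0.155 to 1.53 ± 0.0467 CPM (1.55 ± 0.18). Both were low in these cells.

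Cytokine, TNF and TGF-beta receptors had 13 of 57 members higher and 7 lower (median 0.106). Tnfrsf12a, the TWEAK receptor Fn14 of injured tissue, stood at 59.7, 73.8 and 62.4 CPM and at 163, 162 and 135 CPM, 2.35-fold higher (1.23 ± 0.10). Il17rc rose by 0.82 ± 0.09 and Tlr3, which senses double-stranded RNA, by 0.97 ± 0.09, whereas Tlr4 fell by 0.51 ± 0.07 on the log2 scale. Receptor chains of the interleukin-6 family fell, Cntfr from 35.8 ± 3.53 to 21.1 ± 3.06 CPM (-0.76 ± 0.10) and Lifr from 8.23 ± 0.771 to 5.11 ± 0.693 CPM (-0.69 ± 0.12). The shared chain Il6st was at 0.00 ± 0.08 and the interleukin-11 receptor gene Il11ra1 at -0.18 ± 0.10 (adjusted p = 0.986 and 0.270). The TGF-beta receptors, named after their values were seen, moved apart: Tgfbr2 rose by 0.47 ± 0.06 and Tgfbr1 fell by 0.30 ± 0.07 on the log2 scale.

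Notch1, the receptor of the Notch pathway, fell from 7.60, 7.03 and 7.40 CPM to 2.32, 3.69 and 4.01 CPM (2.19-fold, -1.13 ± 0.16, adjusted p = 0.000133), with replicate 1 the lowest of the knockout libraries. The netrin receptors parted, Unc5c falling from 145 ± 12.1 to 77.8 ± 6.14 CPM (-0.90 ± 0.09) and Unc5b rising from 4.18 ± 0.505 to 7.62 ± 1.56 CPM (0.86 ± 0.18). Of the plexins, which bind semaphorins, Plxnd1 (-0.79 ± 0.11), Plxnc1 (-0.56 ± 0.07) and Plxna1 (-0.53 ± 0.12) fell and Plxna3 rose (1.09 ± 0.20). In this list of 33, 6 rose and 7 fell.

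Of 39 integrins and cadherins 8 rose and 7 fell. Itga3, the laminin-binding alpha 3 chain, stood at 1.46, 1.64 and 1.65 CPM in control and 7.56, 7.51 and 8.99 CPM in knockout, a 5.07-fold rise (2.34 ± 0.11, adjusted p = 7.87e-10). Some other chains fell: Itga9 from 20.05, 17.4 and 18.4 to 7.85, 7.26 and 8.59 CPM (-1.24 ± 0.09), Itga4 from 110 ± 11.1 to 49.4 ± 4.19 CPM (-1.16 ± 0.09) and Itgb3 from 25.6 ± 0.984 to 11.6 ± 0.431 CPM (-1.15 ± 0.08). Smaller differences went both ways. Itgb1, the member with the highest level, was at 0.29, Itga5 at 0.41 and Itga6 at -0.26 (adjusted p = 0.00974, 0.0133 and 0.0145, edgeR). Each of these calls was lost under at least 1 alternative. Itgav, the usual partner of Itgb3, was at 0.05 ± 0.09 (adjusted p = 0.768). Cdh6, a mesenchymal and renal cadherin, rose 3.28-fold (1.71 ± 0.16), and Cdh13, a lipid-anchored cadherin, fell 2.51-fold (-1.33 ± 0.23).

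Ion channels had 9 of 99 members higher (9.09%) and 16 lower (16.2%), against 9.4% and 11.1% of all protein-coding genes. Gjc3, a connexin of myelinating glia, fell from 86.3, 96.8 and 83.0 CPM to 18.4, 17.5 and 17.03 CPM (5.02-fold, -2.33 ± 0.07, adjusted p = 4.84e-12), and the highest knockout library lay far under the lowest control. The connexins Gja1 (-0.43 ± 0.07) and Gjb2 (-0.38 ± 0.08) fell less. Glrb, the anchoring subunit of glycine receptors, fell from 264, 297 and 259 CPM to 123, 111 and 99.6 CPM (-1.30 ± 0.09). Chrnb1, a muscle acetylcholine receptor subunit, rose from 0.546, 0.612 and 0.770 CPM to 4.20, 3.62 and 4.54 CPM (6.39-fold, 2.68 ± 0.15), and the ATP-gated channel gene P2rx5 rose by 1.91 ± 0.17.

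Of 319 secreted proteins tested, 73 rose (22.9%) and 60 fell (18.8%), and 46 and 27 did so at least 2-fold, or 73 of the 133 calls. The median log2 fold change was 0.035. Over all tested protein-coding genes 9.4% rose and 11.1% fell, and 2.6% and 2.17% did so at least 2-fold.

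Growth factors and their binding proteins rose in 21 of 76 cases and fell in 10. Ccn1, a matricellular protein induced through YAP and TEAD, stood at 28.8, 26.0 and 31.2 CPM in control and 135, 145 and 155 CPM in knockout. The 5.06-fold rise (2.34 ± 0.08, adjusted p = 2.2e-11) exceeded that of its paralog Ccn2, which went from 4.87 ± 0.678 to 8.73 ± 0.479 CPM (0.84 ± 0.10). Ltbp1 and Ltbp4, which hold latent TGF-beta in the matrix, rose by 2.01 ± 0.09 and 1.38 ± 0.12, and Ltbp3 was at 0.25 ± 0.13 (adjusted p = 0.245). Bdnf, a neurotrophin, rose from 3.37 ± 0.191 to 9.55 ± 0.300 CPM (1.50 ± 0.08), and Igfbp7 by 1.69 ± 0.22. Bambi, a decoy receptor that dampens TGF-beta signalling, fell from 23.1, 30.9 and 26.1 CPM to 12.8, 13.4 and 10.4 CPM (-1.12 ± 0.12), and the nodal and BMP antagonist gene Cer1 fell by 1.59 ± 0.23 on the log2 scale.

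Further ligands of this list were named after their values were seen. Tgfb1 rose from 3.88, 3.43 and 4.29 CPM to 7.16, 8.01 and 9.76 CPM (1.10 ± 0.12, adjusted p = 1.17e-05), with no overlap, and Tgfb3 by 0.90 ± 0.09. The macrophage growth factor gene Csf1 rose by 1.11 ± 0.12, the placental growth factor gene Pgf by 1.30 ± 0.17 and the EGF receptor ligand gene Hbegf by 1.06 ± 0.12.

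Cytokines and chemokines outside the interferon list rose in 8 of 23 cases and none fell (median 0.244). The 3 described here belong to the interleukin-6 family, which signals through gp130. Besides Il11, Clcf1 rose from 0.267, 0.245 and 0.365 CPM to 1.24, 1.53 and 1.79 CPM (5.14-fold, 2.36 ± 0.22) and Lif from 0.457, 0.297 and 0.662 CPM to 1.00, 1.39 and 1.49 CPM (2.69-fold, 1.43 ± 0.22). Both stayed low. Of 15 peptide hormones 1 rose and 3 fell. Cck, the peptide cholecystokinin, fell from 9.24, 8.17 and 9.08 CPM to 1.85, 1.90 and 1.46 CPM (5.09-fold, -2.35 ± 0.11, adjusted p = 8.95e-10). The apelin gene Apln fell by 1.65 ± 0.32 on the log2 scale, and the adrenomedullin gene Adm rose by 1.31 ± 0.16.

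Guidance ligands had 7 of 44 members higher and 9 lower. Semaphorins went both ways. Sema7a fell by 1.54 ± 0.20 on the log2 scale, Sema6a from 27.3, 22.2 and 27.2 CPM to 9.52, 10.1 and 11.5 CPM (-1.30 ± 0.10), Sema6d fell by 0.88 ± 0.11 and Sema3e fell by 0.66 ± 0.11. Sema3a rose by 1.42 ± 0.21 from 0.557 ± 0.146 CPM. Ntn4, a laminin-related netrin of basement membranes, rose from 0.216, 0.437 and 0.311 CPM to 1.71, 1.45 and 2.61 CPM (6.13-fold, 2.62 ± 0.26).

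Extracellular matrix genes changed in both directions, with 20 of 75 higher and 22 lower, 13 and 14 of them at least 2-fold (median -0.088). Col8a1, a short-chain collagen of vessel walls, rose from 4.93, 4.79 and 5.60 CPM to 55.0, 50.1 and 51.7 CPM (10.2-fold, 3.35 ± 0.08, adjusted p = 2.7e-13). Col12a1, which decorates collagen fibrils, rose 7.29-fold (2.87 ± 0.16), from 1.95 ± 0.368 to 14.4 ± 1.82 CPM. Fibronectin, Fn1, went from 54.4, 44.3 and 56.2 CPM to 181, 208 and 236 CPM (4.03-fold, 2.01 ± 0.13) and thrombospondin 1, Thbs1, from 6.03 ± 0.809 to 25.7 ± 2.83 CPM (2.09 ± 0.10). Sparc, an abundant collagen-binding glycoprotein of these cells, rose by 0.75 ± 0.07.

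The chains of type I collagen, which assemble as a heterotrimer of alpha 1 and alpha 2, moved in opposite directions. Col1a1 stood at 2.53, 2.33 and 2.93 CPM in control and 12.4, 12.4 and 16.6 CPM in knockout (5.30-fold higher, 2.40 ± 0.17, adjusted p = 6.09e-08). Col1a2 stood at 3.61, 3.04 and 3.40 CPM in control and 0.611, 0.824 and 0.607 CPM in knockout (4.91-fold lower, -2.30 ± 0.20, adjusted p = 6.97e-07). In neither gene did the groups overlap. Both are on the list of 9 fibroblast markers, whose summed level was 13.9 to 16.8 CPM in control and 19.1 to 25.4 CPM in knockout. Of its 5 tested members, Col1a1 rose, Col1a2 and Postn fell and the other 2 did not pass. The part of other cells in these values was not tested.

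Other matrix transcripts fell with Col1a2. Postn, periostin, went from 3.99, 3.48 and 4.02 CPM to 0.681, 0.908 and 1.02 CPM (4.38-fold, -2.13 ± 0.20), the fibril-associated collagen gene Col14a1 from 3.22 ± 0.111 to 0.466 ± 0.0939 CPM (-2.79 ± 0.25) and the small proteoglycan gene Prelp from 1.55 ± 0.143 to 0.134 ± 0.0206 CPM (-3.52 ± 0.27). Syndecan 3, Sdc3, a heparan sulfate proteoglycan of the nervous system, fell from 12.9 ± 1.18 to 3.38 ± 0.171 CPM (-1.93 ± 0.11). Genes named after their values were seen also went both ways: the laminin chain gene Lama5 rose by 1.47 ± 0.15, the collagen gene Col5a1 rose by 1.67 ± 0.10, and the basement membrane linker gene Nid1 fell by 1.40 ± 0.13 on the log2 scale.

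Extracellular proteases and their inhibitors had 17 of 87 members higher and 16 lower. Plau, which encodes the plasminogen activator urokinase, rose from 1.61, 2.43 and 2.05 CPM to 8.82, 8.87 and 8.17 CPM (4.28-fold, 2.10 ± 0.15), its paralog Plat rose by 0.99 ± 0.10 and the urokinase receptor gene Plaur by 0.46 ± 0.08. Plaur was named after its value was seen. Timp1, an inhibitor of matrix metalloproteinases, rose from 5.88, 5.82 and 5.50 CPM to 27.9, 25.9 and 24.7 CPM (4.56-fold, 2.19 ± 0.08), while its paralog Timp3 fell by 0.76 ± 0.10 on the log2 scale and Timp2 was at 0.06 ± 0.06 (adjusted p = 0.562). The aggrecanase gene Adamts4 rose by 1.32 ± 0.09 and the stromelysin gene Mmp11 by 1.32 ± 0.15. Heparanase, Hpse, which trims heparan sulfate, fell from 25.2, 24.8 and 22.8 CPM to 6.47, 6.99 and 5.99 CPM (3.74-fold, -1.90 ± 0.10), and Adam12 fell by 1.35 ± 0.13 on the log2 scale.

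**Figure D3:**
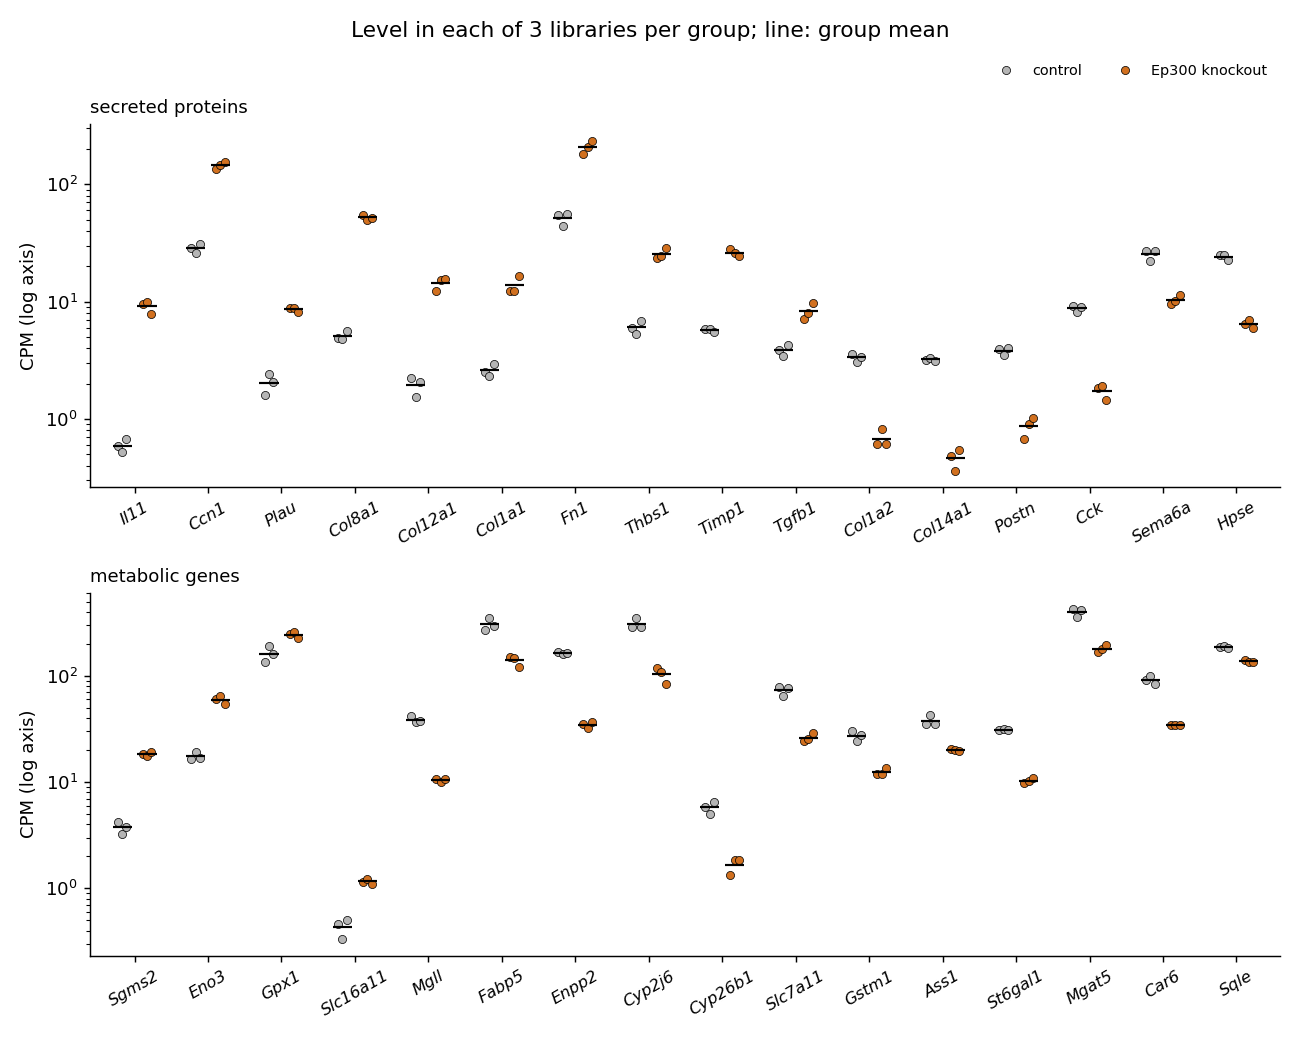
CPM on a log axis in each control library (grey points) and each Ep300-knockout library (orange points) for 16 secreted proteins above and 16 metabolic genes below, with a line at each group mean. Col1a1 lies higher and Col1a2 lower in the knockout libraries, and most metabolic genes shown lie lower, Sgms2, Eno3, Gpx1 and Slc16a11 being the ones that lie higher.

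Of 870 metabolic genes tested, 583 were not called, 65 rose (7.47%) and 222 fell (25.5%), with a median log2 fold change of -0.086, and 12 and 36 passed 2-fold. For all tested protein-coding genes the shares were 9.4% higher and 11.1% lower. The lists with the largest shares of lower members were cholesterol and fatty acid synthesis, amino acid metabolism, the tricarboxylic acid cycle and glutathione metabolism.

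**Figure D4:**
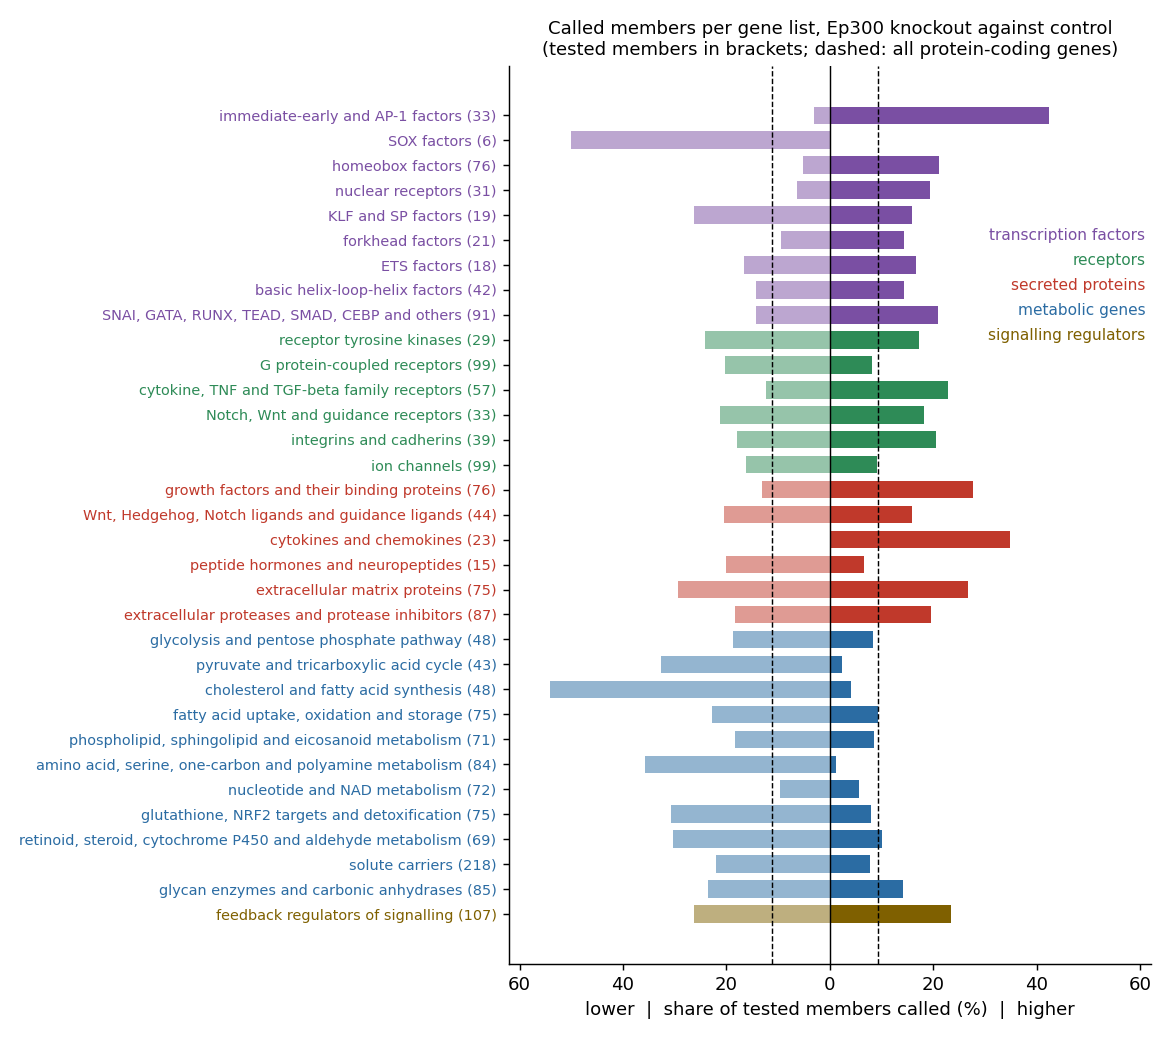
Share of the tested members of each gene list called lower (left, pale bars) and higher (right, dark bars) in Ep300 knockout, coloured by class, with the number of tested members in brackets and dashed lines at 11.1% and 9.4%, the shares over all protein-coding genes. The dashed lines include the set-aside genes, which the lists leave out. The metabolic lists extend to the left of the dashed line except nucleotide and NAD metabolism, while immediate-early factors, cytokines and growth factors extend to the right.

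In cholesterol and fatty acid synthesis 26 of 48 fell and 2 rose (median -0.291). Members that fell include the sterol carrier gene Stard4 (60.7 ± 3.47 to 41.7 ± 2.22 CPM, -0.54 ± 0.06) and the fatty acid elongase gene Elovl6 (97.0 ± 4.93 to 67.1 ± 3.50 CPM, -0.53 ± 0.06). Sqle, which encodes squalene epoxidase and was named after its value was seen, was at -0.44 ± 0.06. In the tricarboxylic acid cycle list 14 of 43 fell and 1 rose (median -0.147), with Mpc1, a subunit of the mitochondrial pyruvate carrier, at -0.41 ± 0.10.

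Glycolytic genes changed less as a list, 4 of 48 higher and 9 lower (median -0.01), but the enolase isozymes diverged. Eno3, the muscle isozyme, rose from 16.5, 19.2 and 16.7 CPM to 60.1, 63.98 and 54.7 CPM (3.42-fold, 1.77 ± 0.09, adjusted p = 7.84e-10), and Eno2, the neuronal isozyme, from 10.7 ± 0.830 to 14.2 ± 0.206 CPM (0.41 ± 0.08). Eno1, the ubiquitous isozyme, was at -0.28 ± 0.07 (adjusted p = 0.0126) and lost its call with only the compared groups in the fit. It shares nearly identical sequence with Eno1b, so its count is uncertain. Pgk1, the member with the highest level in CPM, was at -0.09 ± 0.11 (adjusted p = 0.660). The lactate exporter gene Slc16a3 rose by 0.72 ± 0.10, and its relatives Slc16a11 and Slc16a13 by 1.42 ± 0.17 and 0.63 ± 0.09, while Ldhb fell by 0.52 ± 0.09 on the log2 scale.

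Of 75 genes of fatty acid uptake, oxidation and storage 17 fell and 7 rose. Mgll, monoacylglycerol lipase, went from 41.9, 36.7 and 37.8 CPM to 10.6, 10.1 and 10.7 CPM (3.72-fold, -1.89 ± 0.08, adjusted p = 3.59e-10). The genes of 3 fatty acid-binding proteins fell: Fabp7 of glia from 14.5 ± 1.25 to 5.09 ± 0.625 CPM (-1.51 ± 0.12), Fabp5 from 271, 350 and 294 CPM to 152, 148 and 122 CPM (-1.12 ± 0.11) and Fabp3 fell by 1.22 ± 0.24 on the log2 scale. The importer gene Slc27a6 fell by 1.24 ± 0.10. Lpin1, a phosphatidate phosphatase, fell from 19.0 ± 1.30 to 9.07 ± 1.30 CPM (-1.07 ± 0.10) and was named after its value was seen.

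Among 71 genes of phospholipid, sphingolipid and eicosanoid metabolism 6 rose and 13 fell. Enpp2, autotaxin, the secreted enzyme that makes lysophosphatidic acid, fell from 167, 160 and 163 CPM to 35.1, 32.4 and 36.6 CPM (4.71-fold, -2.24 ± 0.07, adjusted p = 4.84e-12). Hpgds, a prostaglandin D synthase, fell by 1.36 ± 0.11 on the log2 scale. Sgms2, sphingomyelin synthase 2, rose from 4.18, 3.24 and 3.80 CPM to 18.2, 17.7 and 19.1 CPM (4.88-fold, 2.29 ± 0.10), and the sphingosine kinase gene Sphk1 by 0.85 ± 0.11.

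Amino acid, serine, one-carbon and polyamine metabolism had 30 of 84 members lower and 1 higher (median -0.182), none by 2-fold. Ass1, argininosuccinate synthase, fell from 35.2, 42.4 and 35.1 CPM to 20.7, 20.03 and 19.5 CPM (-0.90 ± 0.08), glutamine synthetase, Glul, from 92.9 ± 2.70 to 60.2 ± 1.13 CPM (-0.63 ± 0.06) and the transaminase gene Bcat1 by 0.49 ± 0.06 on the log2 scale. Asns and Shmt2, 2 known ATF4 targets named after their values were seen, were both at -0.33 (SE 0.06 and 0.08). The creatine kinase gene Ckb was the member that rose (0.30 ± 0.06). Nucleotide and NAD genes stood near the background, with 4 of 72 higher and 7 lower, and the ribonucleotide reductase gene Rrm2 was at -0.06 ± 0.07 (adjusted p = 0.625).

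Of 75 genes of glutathione metabolism and detoxification 23 fell and 6 rose (median -0.149). Slc7a11, the cystine transporter that feeds glutathione synthesis, fell from 78.3, 64.5 and 77.2 CPM to 24.2, 25.6 and 28.9 CPM (2.79-fold, -1.48 ± 0.09, adjusted p = 1.19e-08). The glutathione transferase gene Gstm1 fell from 27.4 ± 3.14 to 12.5 ± 0.983 CPM (-1.13 ± 0.09), and its paralog Gstm2 was at -0.11 ± 0.07 (adjusted p = 0.309). Gsta2 was at -1.09 ± 0.13 and shares reads with its near-identical copy Gsta1, which was also lower, so both are uncertain. The peroxidase gene Gpx1 rose by 0.59 ± 0.12, extracellular superoxide dismutase, Sod3, by 1.03 ± 0.15 and haem oxygenase, Hmox1, by 0.49 ± 0.07.

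Retinoid, steroid and cytochrome P450 genes had 21 of 69 members lower and 7 higher, 9 of the falls past 2-fold. Cyp2j6, an epoxygenase, fell from 287, 351 and 285 CPM to 117, 108 and 84.5 CPM (2.98-fold, -1.57 ± 0.12). Cyp26b1, which degrades retinoic acid, fell from 5.81, 5.05 and 6.51 CPM to 1.32, 1.83 and 1.83 CPM (3.48-fold, -1.80 ± 0.13, adjusted p = 9.47e-08). The retinaldehyde reductase gene Dhrs3 rose by 0.76 ± 0.13, and Aldh1a3, which makes retinoic acid and was named after its value was seen, fell by 0.90 ± 0.13 on the log2 scale. Cyp3a13 fell by 2.17 ± 0.22 and Cyp1b1, an aryl hydrocarbon receptor target, rose by 1.96 ± 0.24, both at low levels.

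Solute carriers fell in 48 of 218 cases and rose in 17. Beside Slc7a11, the anion exchanger gene Slc26a7 fell by 1.52 ± 0.15 on the log2 scale, Slc9b2, a sodium-proton exchanger, fell by 1.34 ± 0.14 and Slc12a7, a potassium-chloride cotransporter, from 84.6 ± 7.15 to 38.6 ± 6.03 CPM (-1.13 ± 0.10). Of 85 glycan enzymes and carbonic anhydrases 20 fell and 12 rose. St6gal1, the sialyltransferase of N-glycans, fell from 30.6, 31.5 and 31.0 CPM to 9.71, 10.1 and 10.9 CPM (3.03-fold, -1.60 ± 0.08), and Mgat5, which builds branched N-glycans, from 425, 360 and 416 CPM to 168, 177 and 196 CPM (2.22-fold, -1.15 ± 0.09). Mgat3, whose product stops that branching, rose by 0.66 ± 0.12. The secreted carbonic anhydrase gene Car6 fell from 92.2 ± 7.68 to 34.4 ± 0.249 CPM (-1.42 ± 0.07), and its relatives Car8 and Car14 fell by 1.89 ± 0.15 and 0.48 ± 0.06 on the log2 scale.

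Signalling regulators changed in 53 of 107 cases (49.5%), 25 higher (23.4%) and 28 lower (26.2%; median 0.094), 11 and 8 past 2-fold. The shares over all tested protein-coding genes were 20.5%, 9.4% and 11.1%. Akap12, a scaffold for protein kinases A and C, rose from 20.3, 16.8 and 20.7 CPM to 67.2, 68.4 and 83.9 CPM (3.80-fold, 1.92 ± 0.11, adjusted p = 5.42e-09). The serum-induced kinase gene Sgk1 rose from 12.4, 12.3 and 13.7 CPM to 34.9, 34.2 and 34.1 CPM (2.68-fold, 1.42 ± 0.06), while its paralog Sgk2 was among the largest falls. The stress gene Gadd45b rose by 1.23 ± 0.13 and the ERK phosphatase gene Dusp5 by 1.36 ± 0.20. Lats2, a Hippo kinase, and the ERK feedback gene Spry2, both named after their values were seen, rose by 1.10 ± 0.08 and 0.68 ± 0.07.

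Falls in this class included the pseudokinase gene Trib2, from 5.66, 3.95 and 4.82 CPM to 0.875, 0.775 and 0.714 CPM (6.13-fold, -2.62 ± 0.16, adjusted p = 9.41e-09). Its paralogs Trib1 and Trib3 fell by 0.79 ± 0.10 and 0.65 ± 0.07. Axin2, the feedback inhibitor and usual read-out of Wnt signalling, fell from 12.3, 10.5 and 12.2 CPM to 4.13, 4.66 and 6.03 CPM (2.36-fold, -1.24 ± 0.15). Phosphodiesterases, which break down cyclic nucleotides, split: Pde3a fell from 2.72, 2.36 and 2.07 CPM to 0.514, 0.618 and 0.369 CPM (-2.25 ± 0.20), Pde7b fell by 1.40 ± 0.15 and Pde1c fell by 1.21 ± 0.12 on the log2 scale, while Pde1a rose by 1.21 ± 0.18, Pde4a by 0.98 ± 0.13 and Pde4b by 0.37 ± 0.06.

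Whether the single knockouts differ was tested by the direct contrast of Ep300 with Crebbp knockout, which uses no control library. A call in it does not show that Crebbp knockout left the gene at its control level. It called 2512 of the 18434 genes (13.6%), 1154 higher (6.26%) and 1358 lower (7.37%) in Ep300 knockout. Against control, Crebbp knockout differed in 577 genes (3.13%) and the double knockout in 9102 (49.4%). Those comparisons share the control libraries with the one described here. Of the 2969 genes called against control, 1782 were also called in the direct contrast, which shares the Ep300-knockout libraries. The sign of the 2 differences was not compared in this count. Among classes this held for 65 of 107 transcription factors, 77 of 113 receptors, 97 of 133 secreted proteins, 176 of 287 metabolic genes and 43 of 53 signalling regulators. For the remaining genes a difference between the single knockouts was not shown.

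Several of the changes were large in Ep300 knockout and small in Crebbp knockout, and the direct contrast called them. With the groups given as control, loss of Ep300, loss of Crebbp and loss of both, S100a6 was at 13.8 ± 0.952, 86.1 ± 12.0, 15.98 ± 2.33 and 92.0 ± 6.79 CPM, and the direct difference of the single knockouts was 2.43 ± 0.12 on the log2 scale (adjusted p = 1.21e-09). Epha2 was at 1.31 ± 0.0501 CPM in Crebbp knockout and 14.3 ± 0.207 CPM in the double knockout (direct 3.03 ± 0.09), and Eno3 at 15.4 ± 0.773 and 55.4 ± 4.31 CPM (direct 1.95 ± 0.09). Among falls, Gpr37 was at 16.8 ± 0.572 CPM in Crebbp knockout and 2.58 ± 0.0134 CPM in the double knockout (direct -2.69 ± 0.10). Gjc3 was at 92.8 ± 2.93 and 15.8 ± 0.310 CPM (direct -2.39 ± 0.07), Sox9 at 27.9 ± 3.07 and 8.99 ± 1.25 CPM (direct -2.20 ± 0.15) and Mgat5 at 388 ± 27.9 and 121 ± 5.45 CPM (direct -1.10 ± 0.09). In all 7 genes the double knockout lay on the same side of control as the Ep300 knockout. Its mean was further from control than that of the Ep300 knockout for S100a6, Epha2, Gjc3 and Mgat5. It was nearer for Sox9 and Eno3, and the same at the digits given for Gpr37.

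In 3 of the named genes that fell, Crebbp knockout rose against control. Cck stood, in that order of groups, at 8.83 ± 0.579, 1.74 ± 0.238, 17.5 ± 1.29 and 0.867 ± 0.0817 CPM. The direct difference was -3.33 ± 0.11 (adjusted p = 4.17e-11), and the rise in Crebbp knockout against control was 0.99 ± 0.10. Cyp26b1 stood at 5.79 ± 0.728, 1.66 ± 0.295, 15.3 ± 0.978 and 2.36 ± 0.0933 CPM in the same order (direct -3.20 ± 0.13, Crebbp knockout against control 1.40 ± 0.12). Sema6a stood at 25.6 ± 2.90, 10.4 ± 0.997, 38.5 ± 4.14 and 14.1 ± 0.536 CPM (direct -1.90 ± 0.10, Crebbp knockout against control 0.59 ± 0.10). The retinaldehyde reductase gene Dhrs3 went the opposite way, at 2.47 ± 0.341, 4.20 ± 0.132, 1.56 ± 0.162 and 4.21 ± 0.411 CPM (direct 1.43 ± 0.13, adjusted p = 1.89e-06).

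Other changes were shared in direction by both single knockouts and larger with loss of Ep300. Il11 was, again in that order, at 0.595 ± 0.0759, 9.16 ± 1.13, 2.32 ± 0.292 and 51.0 ± 2.09 CPM (direct 1.98 ± 0.11). Col8a1 was at 5.11 ± 0.436, 52.3 ± 2.53, 13.1 ± 0.424 and 71.3 ± 2.02 CPM (direct 2.00 ± 0.07), and Hpse at 24.2 ± 1.25, 6.48 ± 0.499, 12.7 ± 0.686 and 3.15 ± 0.399 CPM (direct -0.96 ± 0.10). Among the genes the direct contrast did not call, Klf5 was at 3.06 ± 0.304 CPM in Ep300 knockout and 2.55 ± 0.161 CPM in Crebbp knockout (0.27 ± 0.13, adjusted p = 0.206), S1pr1 at 1.53 ± 0.0467 and 1.18 ± 0.122 CPM (0.37 ± 0.17, adjusted p = 0.168) and Tlr4 at 74.7 ± 7.51 and 77.3 ± 1.70 CPM (-0.05 ± 0.07, adjusted p = 0.733).

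**Figure D5:**
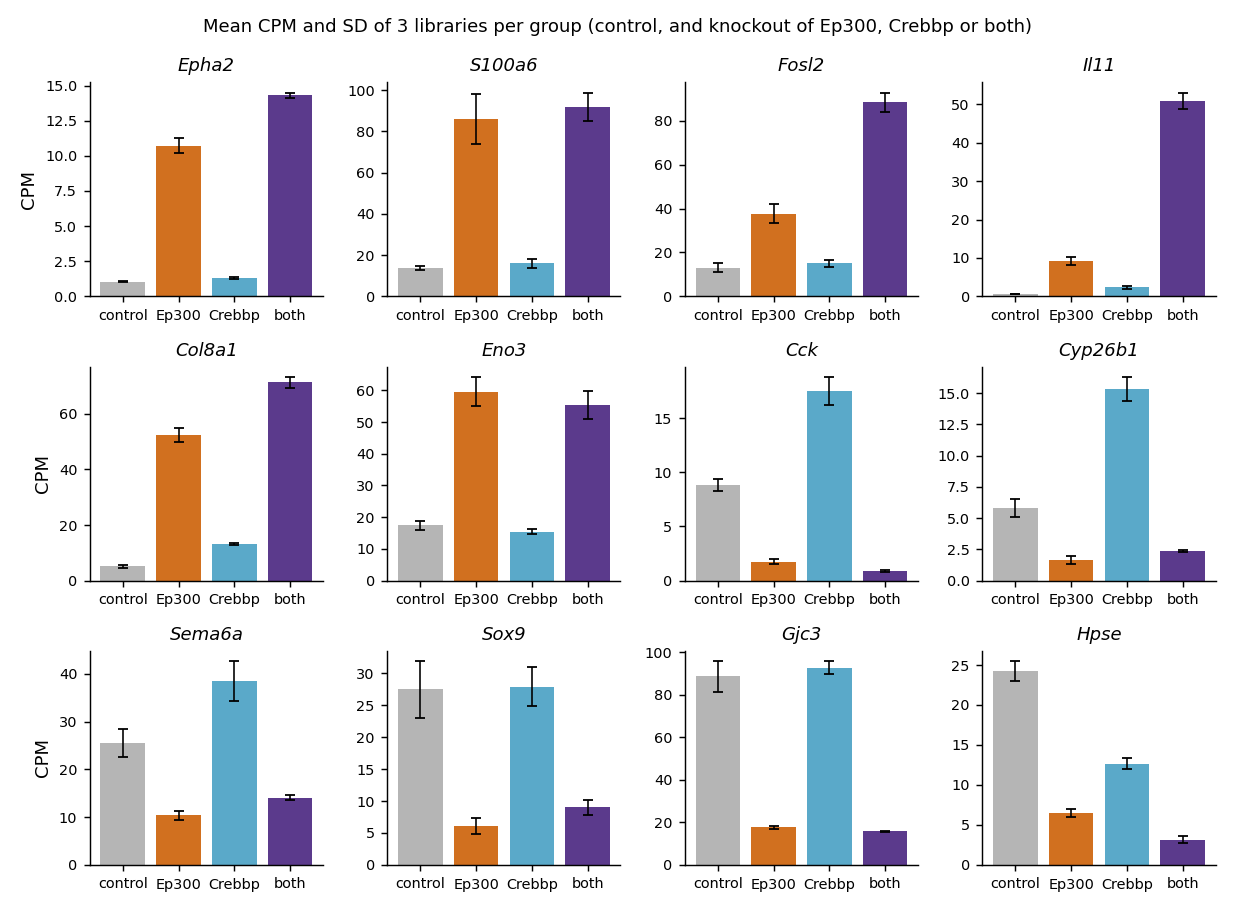
Mean CPM (bars, axis from 0) with the SD of 3 libraries (error bars) for 12 genes in control and in knockout of Ep300, Crebbp or both. Cck, Cyp26b1 and Sema6a are lower than control with loss of Ep300 and higher with loss of Crebbp. Epha2, S100a6 and Eno3 rise with loss of Ep300 and stay near control with loss of Crebbp. Il11, Fosl2, Epha2 and Col8a1 are among the genes highest in the double knockout.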

How the data were processed

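RNA-seq counts per gene were analysed for 12 libraries. Per the labels' protocols, RNA was purified by RNeasy Plus Mini columns, and the library kit was KAPA Stranded mRNA-Seq. The authors deposited raw counts, made with bcl2fastq, HISAT2 and HTSeq on mm10 per the submitters' processing notes. The sources used here do not give tool versions, the annotation release or whether strand was used in counting. If strand was not used, reads of a gene and an overlapping antisense gene cannot be told apart.

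Counts were tested with edgeR 4.0.16 (R 4.3.3): filterByExpr kept 18434 of 54752 genes, libraries were scaled by TMM, and a robust quasi-likelihood F test with group as the only term was fitted to all 12 libraries. The direct contrast of the single knockouts came from the same fit. P-values were adjusted over all tested genes, with a threshold of 0.05. The biological coefficient of variation was 9.457%, and the fit was tested on simulated data. Coordinates are from GENCODE M21, which matched 54723 genes, and promoter windows from RefSeq.

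The members and the gene lists were chosen with earlier results of these data known. Named genes were the 12 largest rises and falls outside the set-aside lists with at least 5 CPM in the higher group, and per list up to 5 in each direction with at least 1 CPM, all without overlap between groups, plus the member with the highest CPM and paralogs from the same list. Other names were chosen after their values were seen, and a few genes that meet the rule are not reported here. Alternatives were DESeq2 1.42.0, limma-voom (limma 3.58.1), RLE factors, other filters, fewer groups, a replicate block and leaving out each library. Offsets for gene length and GC content were added after seeing the data.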

Additional observations from a re-analysis of the deposited data

How the results depend on the processing

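No named gene called against control changed sign under the alternatives run. Signs of genes not called in either fit were not compared. The split of calls shifted in places. The direct contrast of the single knockouts went from 1154 higher and 1358 lower to 1449 higher and 1345 lower with no filter on low counts. Transcription factors went from 68 and 39 to 46 and 44 without control replicate 2. The 2969 genes that differed between Ep300 knockout and control became 3440 with DESeq2, 2977 with limma-voom, 2956 with RLE factors, 2786 with a filter of 1 CPM in 3 libraries, 3328 with no filter, 2173 with only the compared groups in the fit and 4146 with offsets for length and GC content. Genes that differed at least 2-fold went from 794 to 507 with the 1 CPM filter, 292 higher and 215 lower, since it removes low genes. Leaving out each library in turn gave 2276 to 2863 genes, 721 to 805 of at least 2-fold, 79 to 94 transcription factors, 101 to 112 receptors, 123 to 131 secreted proteins, 227 to 270 metabolic genes and 45 to 53 signalling regulators, and 1780 to 2653 genes in the direct contrast of the single knockouts. The median over all genes was 0.006 in the main fit and lay between -0.002 and 0.017 under the alternatives, so its sign was not fixed.

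Same-numbered control and Ep300-knockout libraries deviated from their group means with correlations of -0.406, 0.408 and 0.314, so the replicate numbers gave no uniform pairing. Differently numbered libraries also shared deviations. Ep300-knockout replicate 3 was at 0.561 with control replicate 1 and at -0.622 with control replicate 2. The source of such shared deviations was not tested. With a replicate block 2521 genes were called. Of 375 called genes considered for naming, 307 were called under all 14 alternatives and 68 lost the call under at least 1. Crebbp passed the threshold with no filter (adjusted p = 0.0027, edgeR) and with the offsets (0.000352), and Ep300 with the offsets (-0.131, 0.0444).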

Other observations

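Genes of the actin cytoskeleton, all chosen after their values were seen, changed in both directions. Cnn2, a calponin that binds actin, stood at 28.8, 29.9 and 29.6 CPM in control and 101, 96.4 and 97.1 CPM in Ep300 knockout (1.74 ± 0.06 on the log2 scale). The groups were far apart with little spread in either. Myl9, a regulatory light chain of non-muscle and smooth muscle myosin, rose from 1.07 ± 0.115 to 5.27 ± 0.347 CPM (2.30 ± 0.13), the tropomyosin gene Tpm2 from 0.380 ± 0.0904 to 1.67 ± 0.182 CPM (2.15 ± 0.21) and the alpha-actinin gene Actn1 from 63.7 ± 4.45 to 121 ± 12.1 CPM (0.92 ± 0.10). The small heat shock gene Hspb6 rose by 2.01 ± 0.08, like Hspb7 above, and Nes, an intermediate filament gene of neural progenitors, by 1.41 ± 0.10. Among PDZ-LIM adaptors Pdlim2 and Pdlim7 rose by 1.62 ± 0.13 and 0.84 ± 0.07 and Pdlim1 fell by 0.39 ± 0.06 on the log2 scale. Tpm1 was at 0.22 ± 0.07 and the filamin gene Flna at 0.25 ± 0.09, which did not pass (adjusted p = 0.0546 and 0.0818, edgeR).

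Some transcripts were nearly absent from control. Msln, the cell-surface protein mesothelin, had 0 counts in all 3 control libraries and 42, 66 and 67 counts in the knockout libraries, at least 53.5-fold higher with a floor of 3 counts over the control group. Ankrd1, a known YAP target, had 1, 0 and 1 counts against 46, 34 and 38, a ratio of 54.1 with a 95% interval of 14.7 to 452. Wnt11, a Wnt ligand, had 1, 1 and 0 counts against 34, 24 and 29 (ratio 39.9, 10.7 to 335). The intervals cover counting error only.

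Further falls were seen in genes on none of the lists. Sparcl1, a relative of Sparc, fell from 86.4, 79.3 and 79.6 CPM to 20.7, 20.3 and 24.3 CPM (-1.91 ± 0.08), while Sparc itself rose. Dpysl3, a cytoskeletal regulator of growth cones, fell by 1.87 ± 0.10 on the log2 scale, Gas7 fell by 1.80 ± 0.10 and the gasdermin gene Gsdmc fell by 1.80 ± 0.12. The electron carrier gene Cyb5a fell from 496 ± 59.3 to 169 ± 25.5 CPM (-1.55 ± 0.13).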
